A study of Mus musculus with 12 samples.

Results

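A set of 9 genes of the Wnt pathway were followed in C17.2 mouse neural progenitor cells with and without T3 (triiodothyronine, the active form of thyroid hormone). They are the receptors Fzd1, Fzd2 and Fzd7, the co-receptor Lrp6, the secreted antagonist Sfrp1, the feedback and target genes Axin2, Wisp1 and Bmp4, and the planar polarity gene Prickle2. The genes were picked by symbol, with earlier results of these data known. All 9 of the 9 symbols were among the 12774 of the deposited table of digital gene expression. The study searched for genes that respond to thyroid hormone in lines that carry one or the other hormone receptor. C17.2a cells stably expressed a tagged thyroid hormone receptor alpha, and C17.2b cells stably expressed a tagged receptor beta. Every culture was kept for 24 h without serum and was then left untreated or given T3 at 1e-07 M for 6, 12 or 24 h. Each of the 12 combinations of line, treatment and time was measured in 1 library, and no group was measured a second time. Each receptor is represented by 1 line, and a difference between the lines cannot be told apart from a difference between transfected cell populations.

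Wnt proteins are secreted signals that bind frizzled receptors on the cell surface. With the co-receptors of the LRP type they keep beta-catenin from being degraded, and beta-catenin then acts with TCF/LEF factors on target genes, among them Axin2, whose product helps to degrade beta-catenin again. A separate branch runs from frizzled receptors through proteins such as Prickle to cell orientation and movement. In the developing brain the pathway is known for its role in the growth and regional identity of neural progenitors.

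Promoter windows in the RefSeq-based table matched 5 of the 9 genes (Axin2, Bmp4, Fzd1, Fzd7 and Prickle2). Fzd2, Lrp6, Sfrp1 and Wisp1 had no entry. A window runs from 250 bases before to 50 bases after a transcription start and is read in the direction of the gene, on build GRCm38.p6. The windows of Fzd7 and Prickle2 are shown because these were the genes that passed the test for T3, in opposite directions, and the window of Axin2 because it is the textbook feedback target and rose most with time. Capitals mark the letters CTTTGA or CTTTGT, the core that TCF/LEF factors bind, on either strand (so also TCAAAG and ACAAAG). The Fzd7 window lies at chr1:59481897-59482196 on the plus strand and holds 1 match, which begins 129 bases before the start. The Prickle2 window lies at chr6:92567317-92567616 on the minus strand and holds 3 matches, which begin 164, 140 and 129 bases before the start. It is the second of 4 Prickle2 windows and was chosen because it held matches, while the other 3 held none. Tags do not tell which start is used. The Axin2 window lies at chr11:108920099-108920398 on the plus strand and holds no match.
Fzd7: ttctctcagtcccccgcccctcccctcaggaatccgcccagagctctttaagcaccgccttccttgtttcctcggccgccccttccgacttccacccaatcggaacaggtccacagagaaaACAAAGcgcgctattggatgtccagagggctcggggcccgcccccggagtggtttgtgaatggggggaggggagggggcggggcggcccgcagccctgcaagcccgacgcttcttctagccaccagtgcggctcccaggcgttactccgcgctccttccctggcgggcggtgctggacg
Prickle2: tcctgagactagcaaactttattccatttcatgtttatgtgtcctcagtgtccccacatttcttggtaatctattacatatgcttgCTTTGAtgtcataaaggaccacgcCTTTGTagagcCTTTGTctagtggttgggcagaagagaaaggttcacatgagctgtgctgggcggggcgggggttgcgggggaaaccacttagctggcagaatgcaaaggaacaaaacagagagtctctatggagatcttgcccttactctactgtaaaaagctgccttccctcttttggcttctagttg
Axin2: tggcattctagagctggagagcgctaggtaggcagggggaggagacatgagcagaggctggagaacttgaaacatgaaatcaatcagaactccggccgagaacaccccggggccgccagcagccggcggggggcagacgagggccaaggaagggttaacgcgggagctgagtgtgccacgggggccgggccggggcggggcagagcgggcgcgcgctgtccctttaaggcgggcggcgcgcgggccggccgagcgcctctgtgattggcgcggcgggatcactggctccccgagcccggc

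The same core was found in the Fzd1 window (2 matches, 242 and 37 bases before the start) and not in that of Bmp4. In all, 3 of the 8 windows of these genes held it, and so did 31.2% of the 32851 windows in the table. The half-site AGGTCA, which thyroid hormone receptors bind in pairs, was searched on both strands as well. It was in none of the 8 windows and in 16.3% of all windows. These are matches of letters in short windows and describe no binding.

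Levels are given in RPM, a gene's tags scaled to a common library total, and the implied depth of the libraries was 7.14e+06 to 1.91e+07 tags. Fold changes are on the scale of log2(RPM + 1), which understates changes of genes with few tags, and each is given with its standard error (SE) from limma. A gene was called when its p-value, adjusted over all genes tested, was under 0.05. Hr, a corepressor known to be induced by T3, was higher with T3 in all 6 pairs of a treated and an untreated library of the same line and time, with ratios of 11 to 20.3 in RPM. Klf9, another known T3 target, was 2.38 to 3.65 times higher in 5 pairs, but 5.25 RPM with T3 against 7.25 RPM without it in the C17.2a 24 h pair. That pair stood apart from the rest. Of all genes tested, 23.6% differed by at least 2-fold in it, against 2.84% to 6.32% in the other 5 pairs, and limma gave its libraries a weight of 0.140 against 1.010 to 2.154. Gsk3b, a kinase of the complex that degrades beta-catenin, was at 5.84 RPM in its T3 library and at 60.94 to 95.19 RPM in the other 11. Shared T3 values are therefore given with and without this pair. Of 8 progenitor markers 7 were in the table, among them Nes, Sox2, Vim and Notch1, and none of the 4 endothelial or 4 microglial and blood markers was. The fibroblast genes Col1a1, Col1a2 and Col3a1 were also high, at 747.16 to 5353.24, 454.17 to 1941.27 and 978.06 to 3237.22 RPM. Other genes of these lists were low. Of the progenitor markers, Msi1 was at 0.00 to 4.35 and Fabp7 at 1.87 to 22.10 RPM. Of the fibroblast markers, Pdgfrb was at 9.54 to 51.44, Dcn at 0.05 to 7.28 and Thy1 at 0.00 to 0.41 RPM, and Lum was not in the table.

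**Figure D1:**
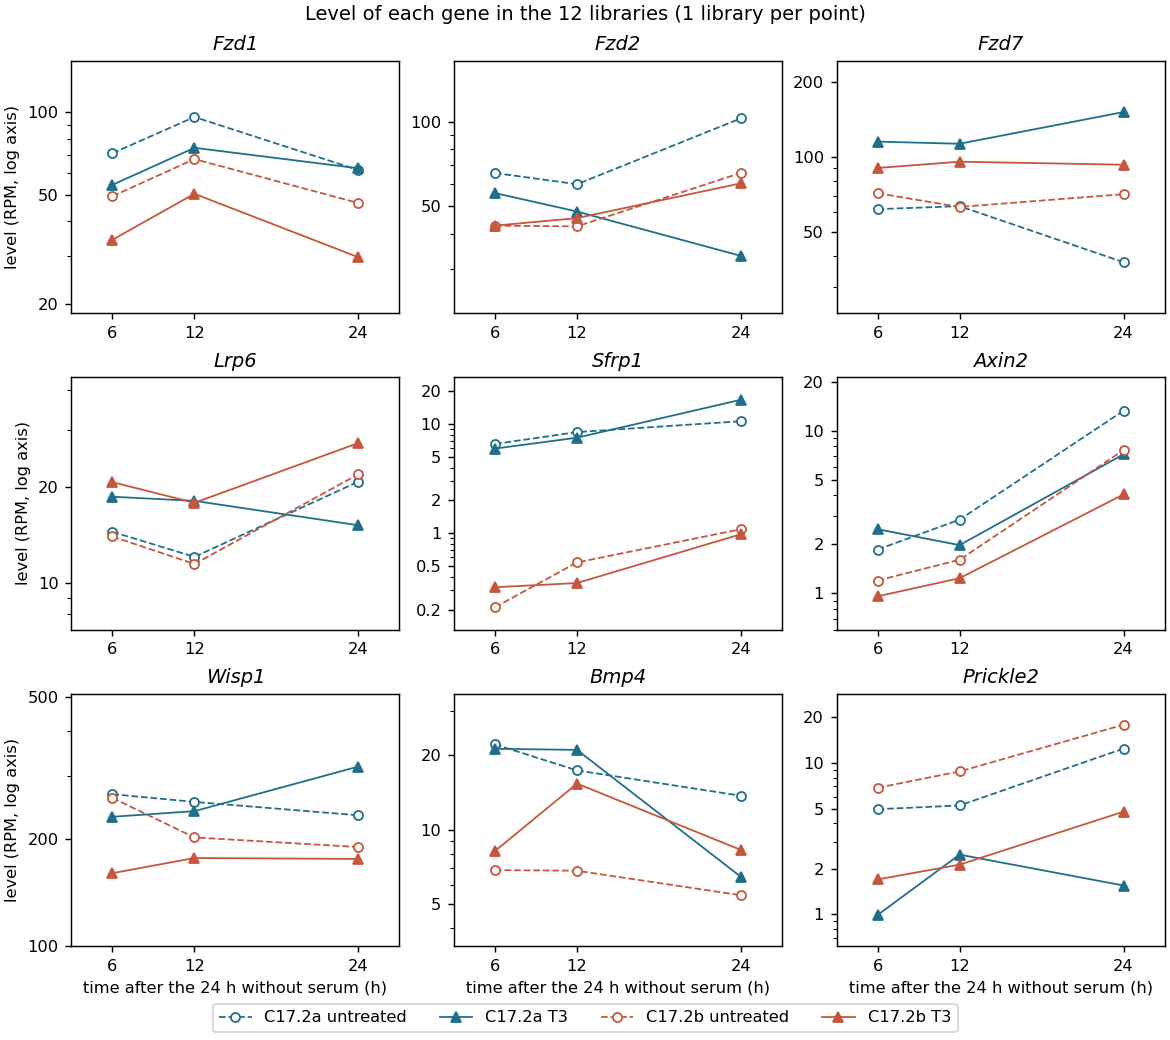
Level of each of the 9 genes in RPM (log axis) against hours of treatment, with 1 library per point. Circles on dashed lines are untreated and triangles on solid lines are T3 libraries, in blue for C17.2a and red for C17.2b. Prickle2 lies lower with T3 at every time in both lines and Fzd7 higher, and Sfrp1 separates the lines.

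The first comparison asked which of the genes T3 changed, over the 6 pairs. Prickle2 fell and Fzd7 rose with T3, and the other 7 genes did not pass the test. One gene of the 9 was called higher, where 4.09% of all 10577 genes tested were, and 1 was called lower, where 2.35% were. The median log2 fold change was -0.14 over the 9 genes and -0.01 over all genes tested. Prickle2 and Fzd7 were also the 2 of 9 genes that had 1 sign in all 6 pairs, which 14.3% of all genes tested had. Of the 7 progenitor markers tested, 3 fell with T3. On the log2 scale Sox2 fell by 1.12 (SE 0.18), Vim by 1.04 (SE 0.16) and Notch1 by 0.87 (SE 0.10), and limma gave adjusted p = 0.00663, 0.00591 and 0.00162. The other 4 did not pass. The summed level of the 7, most of it Vim, was 2444 to 5848 RPM in untreated and 1454 to 1706 RPM in T3-treated C17.2a libraries, and 2969 to 5702 against 1436 to 3094 RPM in C17.2b, where the ranges overlapped. Their part in the result was not tested, and in bulk RNA fewer cells of a type and less RNA per cell cannot be told apart.

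Prickle2, a cytoplasmic protein of the planar polarity branch, was the gene most reduced of the 9. In C17.2a it measured 4.95, 5.24 and 12.45 RPM without T3 at 6, 12 and 24 h, and 0.99, 2.48 and 1.55 RPM with it. In C17.2b it measured 6.86, 8.79 and 17.90 RPM without T3 and 1.70, 2.13 and 4.77 RPM with it. Within each line the highest T3 library lay below the lowest untreated one. The share of all genes with this separation was not counted. The untreated level was 2.11 to 8.03 times the T3 level. Over the 6 pairs the log2 fold change was -1.62 (SE 0.19, adjusted p = 0.00153 in limma), or 3.07-fold lower on this scale. It was -1.61 (SE 0.28) in C17.2a and -1.63 (SE 0.28) in C17.2b, and limma gave adjusted p of 0.036 and 0.0184. Without the C17.2a 24 h pair the shared value was -1.46 (SE 0.15, adjusted p = 7.26e-05 in limma). The shared call held without each single pair, while the call within a line did not: the C17.2a value lost its call without the C17.2a 6 h pair or any one of the C17.2b pairs (adjusted p 0.0912 to 0.17 in limma), and the C17.2b value without any one of its own pairs (0.127 to 0.172).

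Fzd7, a frizzled receptor of stem and progenitor cells, was higher with T3 in all 6 pairs. In C17.2a its levels at 6, 12 and 24 h were 61.8, 63.5 and 37.9 RPM without T3 and 115.20, 113 and 151 RPM with it. In C17.2b they were 71.5, 63.1 and 70.9 RPM without T3 and 90.3, 95.7 and 93.1 RPM with it. Every T3 library lay above every untreated library of either line, a pattern whose share among all genes was not counted. The ratio was 1.26 to 1.86 in 5 pairs and 4 in the C17.2a 24 h pair. The shared log2 fold change was 0.83 (SE 0.20, adjusted p = 0.0404 in limma), and 0.60 (SE 0.10, adjusted p = 0.00171 in limma) without that pair. The call was lost without any one of the other 5 pairs (adjusted p 0.0601 to 0.129 in limma), with no filter on low values (0.0604) and with median-ratio scaling (0.0721), with values of 0.82 to 0.93 in these fits. In C17.2a the log2 fold change was 1.23 (SE 0.22, adjusted p = 0.0412 in limma), and 0.85 (SE 0.13, 0.00327) without the 24 h pair. Without any one of the other 5 pairs this call was lost as well (adjusted p 0.0978 to 0.119 in limma). In C17.2b it was 0.44 (SE 0.22, adjusted p = 0.492 in limma). Leaving out the C17.2a 24 h pair kept the C17.2b value and lowered its SE to 0.10 and its adjusted p to 0.0179, since the lines share the estimate of the spread.

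Fzd1 went the other way from Fzd7 in most pairs. Its levels in C17.2a were 70.90, 96.2 and 61.5 RPM without T3 at 6, 12 and 24 h, and 54.4, 74.2 and 62.5 RPM with it. In C17.2b they were 49.4, 67.5 and 46.7 RPM without T3 and 34.3, 50.4 and 29.6 RPM with it. Fzd1 was thus lower with T3 in 5 of 6 pairs, and nearly level in the C17.2a 24 h pair. Its shared log2 fold change of -0.38 (SE 0.10) missed the threshold, with an adjusted p of 0.0724 in limma. It passed without the C17.2a 24 h pair, at -0.46 (SE 0.08, adjusted p = 0.00252 in limma).

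Fzd2, the last of the 3 frizzled receptors, had no common direction. In C17.2a it was at 65.7, 59.96 and 103 RPM without T3 and at 55.8, 47.9 and 33.3 RPM with it at 6, 12 and 24 h. In C17.2b it was at 42.6, 42.4 and 65.8 RPM without T3 and at 42.7, 45.4 and 60.4 RPM with it. The C17.2a 24 h pair held the largest gap, a log2 ratio of -1.60, against -0.32 to 0.10 in the other 5. The shared value was -0.36 (SE 0.21, adjusted p = 0.418 in limma), and -0.12 (SE 0.09, 0.436) without that pair. The rule that assigned tags to genes is not given in the sources used here, so tags shared by frizzled paralogs may have been split among them. No gene of the 9 had the same 12 values as another symbol.

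Lrp6, the co-receptor that works with frizzled receptors in the beta-catenin branch, was higher with T3 in 5 of 6 pairs. Its C17.2a levels were 14.5, 12.1 and 20.7 RPM without T3 and 18.6, 18.1 and 15.2 RPM with it. The C17.2b levels were 13.98, 11.5 and 21.8 RPM without T3 and 20.6, 17.8 and 27.3 RPM with it. The C17.2a 24 h pair was the 1 pair in which the T3 library was the lower one. The shared log2 fold change was 0.31 (SE 0.15, adjusted p = 0.321 in limma). Without that pair it was 0.46 (SE 0.09) and passed, with an adjusted p of 0.00675 in limma.

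Sfrp1, a secreted protein that resembles the Wnt-binding part of frizzled receptors and is classed as an antagonist, did not pass in either direction with T3. C17.2a libraries held 6.57, 8.44 and 10.6 RPM without T3 and 5.96, 7.50 and 16.7 RPM with it. C17.2b libraries held 0.21, 0.54 and 1.09 RPM without T3 and 0.32, 0.35 and 0.98 RPM with it. The shared log2 fold change was 0.03 (SE 0.15, adjusted p = 0.945 in limma) and turned to -0.08 (SE 0.13) without the C17.2a 24 h pair. In C17.2b the values stand for 3 to 8 implied tags, so only a large change with T3 could be detected there at this depth.

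Axin2, a scaffold of the complex that degrades beta-catenin and itself a target of beta-catenin, was lower with T3 in 5 of 6 pairs. In C17.2a it was at 1.86, 2.84 and 13.3 RPM without T3 and at 2.48, 1.98 and 7.16 RPM with it. In C17.2b it was at 1.20, 1.61 and 7.60 RPM without T3 and at 0.96, 1.24 and 4.06 RPM with it. At 24 h the untreated level was 1.85 times the T3 level in C17.2a and 1.87 times in C17.2b. The shared log2 fold change was -0.34 (SE 0.17, adjusted p = 0.34 in limma). Without the C17.2a 24 h pair it was -0.25 (SE 0.16, adjusted p = 0.354 in limma). The difference between the T3 response at 24 h and at 6 h was -0.84 (SE 0.35), with an adjusted p of 0.726 in limma.

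Wisp1, a secreted protein of the CCN family first described as induced by Wnt1, had a shared value of -0.14 (SE 0.13, adjusted p = 0.647 in limma). Without T3 it measured 267, 254 and 233 RPM in C17.2a and 260.2, 202 and 189 RPM in C17.2b at 6, 12 and 24 h. With T3 it measured 230.3, 239 and 319 RPM in C17.2a and 159.9, 176 and 175 RPM in C17.2b. It was lower with T3 in 5 of 6 pairs and higher in the C17.2a 24 h pair, and its shared value without that pair was -0.26 (SE 0.09, adjusted p = 0.0979 in limma).

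Bmp4, a ligand of the BMP pathway that is also reported as a target of beta-catenin, had a shared value of 0.17 (SE 0.23, adjusted p = 0.767 in limma), and of 0.40 (SE 0.15, 0.0985) without the C17.2a 24 h pair. In C17.2a it was at 22.0, 17.3 and 13.7 RPM without T3 and at 21.2, 20.95 and 6.44 RPM with it. In C17.2b it was at 6.86, 6.82 and 5.43 RPM without T3 and at 8.19, 15.3 and 8.27 RPM with it. All 3 C17.2b pairs were higher with T3, with no overlap between treated and untreated libraries of that line. How many of all genes had such a gap was not counted. The log2 fold change was -0.26 (SE 0.27, adjusted p = 0.625 in limma) in C17.2a and 0.60 (SE 0.27, adjusted p = 0.399 in limma) in C17.2b. Without the C17.2a 24 h pair the C17.2a value turned to 0.10 (SE 0.21, adjusted p = 0.875 in limma), and the C17.2b value passed, with an adjusted p of 0.0438. The difference of the responses, C17.2b minus C17.2a, was 0.86 (SE 0.38, adjusted p = 0.722 in limma).

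**Figure D2:**
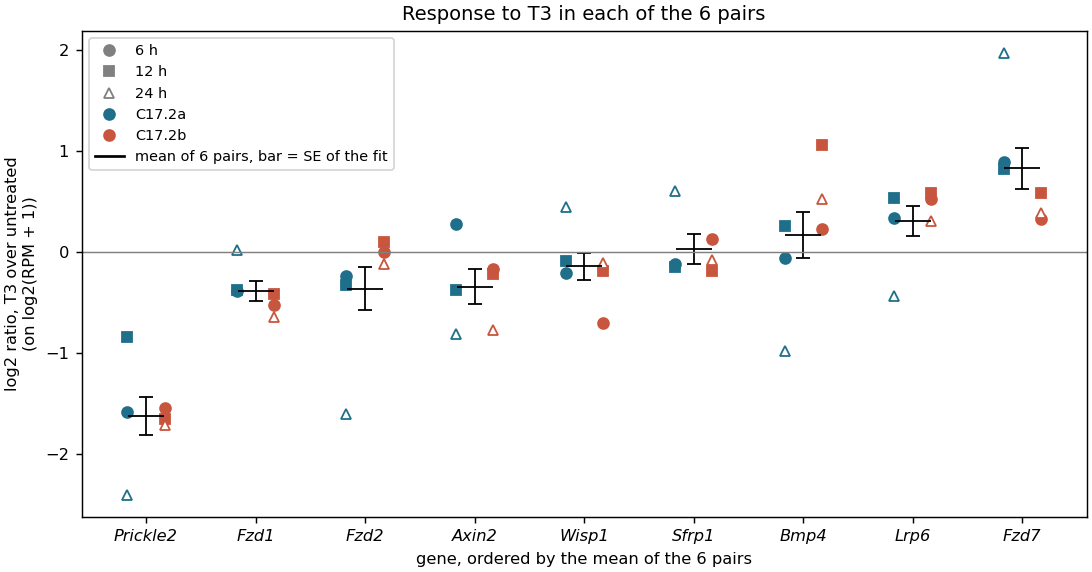
Log2 ratio of T3 over untreated, on log2(RPM + 1), for each gene in each of the 6 pairs, in blue for C17.2a and red for C17.2b. Marker shapes give the time, open triangles being 24 h, and black bars are the mean of the 6 pairs with the SE of the fit. Prickle2 lies below and Fzd7 above 0 in all 6 pairs, and the C17.2a 24 h pair is the highest or the lowest of the 6 points for 9 of the 9 genes.

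Within single lines, 2 of the 9 genes were called in C17.2a (Fzd7 and Prickle2), where 1.37% of all genes tested were, and 1 in C17.2b (Prickle2), where 3.11% were. Without the C17.2a 24 h pair, Fzd7 and Lrp6 were called higher and Fzd1 and Prickle2 lower over the remaining 5 pairs, while 9.14% of all 10391 genes tested were called higher and 5.81% lower. In that fit C17.2b had 3 of the 9 called higher (Bmp4, Fzd7 and Lrp6) and 2 lower (Fzd1 and Prickle2), while 7.59% of all genes were called higher and 3.74% lower. The same genes were called when limma's array weights were used in place of leaving the pair out. With these weights 1706 of all genes were called over the pairs and 1503 in C17.2b, against 682 and 329 in the main fits. The weights turn down the same pair (0.140), so this is no separate check.

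No gene of the 9 passed the test of a difference between the lines in the response to T3. In limma 0 of all genes (0%) passed, 583 of the 10577 had an unadjusted p under 0.05, and 1 of the 9 did, Fzd7 with a difference of -0.79 (SE 0.31, adjusted p = 0.722). For the response at 24 h minus that at 6 h, limma again called 0 genes (0%). There 593 genes had an unadjusted p under 0.05, Axin2 among them as 1 of the 9. The median difference between the lines over all genes tested was 0.12, and 0.00 with median-ratio scaling. Single pairs, which have no replicate and no test, showed at least 2-fold differences as follows. Prickle2 was the 1 gene of the 9 in the C17.2a 6 h pair (2.84% of all genes), in the C17.2b 6 h pair (3.8%) and in the C17.2b 24 h pair (6.32%). There was 0 of 9 in the C17.2a 12 h pair (2.92%), where Prickle2 had a log2 ratio of -0.84. Bmp4 and Prickle2 passed 2-fold in the C17.2b 12 h pair (4.08%), and Fzd2, Fzd7 and Prickle2 in the C17.2a 24 h pair (23.6%).

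The second comparison set untreated C17.2b against untreated C17.2a, with the 3 times as repeats. Sfrp1, Bmp4, Fzd2 and Fzd1 were lower in C17.2b, and none of the 9 was higher. These are 4 of 9 genes called lower, where 5.92% of all 10192 genes tested were, and 0 of 9 called higher, where 2.93% were. The 9 genes were chosen with earlier results of these data known, so these counts cannot show an excess in the pathway. The median over the 9 genes was -0.47 and that over all genes tested -0.04. Median-ratio scaling moved the share of higher among all calls from 33.1% to 43.7%. Other markers differed between the lines too. The summed level of 6 of 7 fibroblast markers was 4967 to 8120 RPM in untreated C17.2a and 2647 to 4594 RPM in untreated C17.2b, with Col1a1 lower by a log2 value of -1.29 (SE 0.19) and Col3a1 by -0.72 (SE 0.18). The progenitor gene Fabp7 was higher in C17.2b by 2.02 (SE 0.19), the neuronal tubulin Tubb3 by 0.67 (SE 0.14) and the glial factor Sox10 by 0.72 (SE 0.15). Adjusted p in limma was 0.00248, 0.0366, 0.000344, 0.0164 and 0.0149 for these 5 genes. Others of the same lists differed in direction or did not pass. The progenitor gene Sox2 was higher in C17.2b by 0.61 (SE 0.12, adjusted p = 0.0121 in limma). Cdh2, also a progenitor marker, was lower, at -0.49 (SE 0.12, adjusted p = 0.0282 in limma). Nes, Vim, Notch1, Col1a2 and Pdgfrb did not pass. The part of the markers in the result was not tested.

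Sfrp1 separated the lines more than any other of the 9 genes. Its 3 untreated C17.2b libraries, at 0.21, 0.54 and 1.09 RPM, lay far below the 6.57, 8.44 and 10.6 RPM of C17.2a. In implied tags this was 4 against 85 at 6 h, 6 against 95 at 12 h and 8 against 104 at 24 h. The ratio C17.2a over C17.2b was 31.3 (95% interval 11.8 to 118) at 6 h, 15.6 (6.94 to 43.8) at 12 h and 9.74 (4.79 to 23.3) at 24 h, with exact intervals that cover counting error only. With T3 the ratios were 18.6, 21.4 and 17. The untreated log2 difference was -2.58 (SE 0.19, adjusted p = 7.84e-05 in limma), a scale on which the few tags of C17.2b shrink the gap. Of the untreated C17.2b libraries only that of 24 h reached 1 RPM, so Sfrp1 passed the filter through C17.2a, the line in which it was high.

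Bmp4 was the other gene of the 9 whose untreated lines did not overlap over the 3 times. This held for 2 of the 9 genes and for 10.3% of all genes tested. Its C17.2a levels were 2.52 to 3.21 times those of C17.2b at the same time. The log2 difference was -1.32 (SE 0.17, adjusted p = 0.00145 in limma). With T3 the gap was smaller at 12 h, where C17.2a was at 1.37 times C17.2b, and turned at 24 h, where C17.2b was at 1.28 times C17.2a. The turn rests on the C17.2a T3 library of 24 h, of the pair that stood apart.

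Fzd2 and Fzd1 were lower in C17.2b at each of the 3 times without T3, by less. The Fzd2 level of C17.2a was 1.41 to 1.57 times that of C17.2b, with a log2 difference of -0.58 (SE 0.12, adjusted p = 0.0146 in limma). For Fzd1 the ratio was 1.32 to 1.44 and the log2 difference -0.47 (SE 0.12, adjusted p = 0.0353 in limma). Neither call held throughout. Fzd1 lost it without the 6 h libraries (adjusted p = 0.191 in limma), without the 12 h libraries (0.1), with no filter (0.052) and with median-ratio scaling (0.0904). Fzd2 lost it without the 6 h libraries (0.0845). When all 12 libraries were used with T3 as a term, its value was -0.23 (adjusted p = 0.537 in limma). In the T3 libraries the log2 differences of Fzd2 were -0.38, -0.08 and 0.84 at 6, 12 and 24 h, the last with the C17.2a library of the pair that stood apart.

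Axin2 was lower in C17.2b at all 3 times without T3, by 1.55, 1.76 and 1.75 times, but its log2 difference of -0.56 (SE 0.19) did not pass (adjusted p = 0.117 in limma). Prickle2 leaned the other way, with 1.39, 1.68 and 1.44 times more in C17.2b and a log2 difference of 0.51 (SE 0.17, adjusted p = 0.108 in limma). Fzd7 had 0.36 (SE 0.17, adjusted p = 0.239 in limma), most of it from 24 h, where C17.2b was at 1.87 times C17.2a. Wisp1 differed by -0.22 (SE 0.12, adjusted p = 0.338 in limma) and Lrp6 by -0.01 (SE 0.15, adjusted p = 0.974 in limma).

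**Figure D3:**
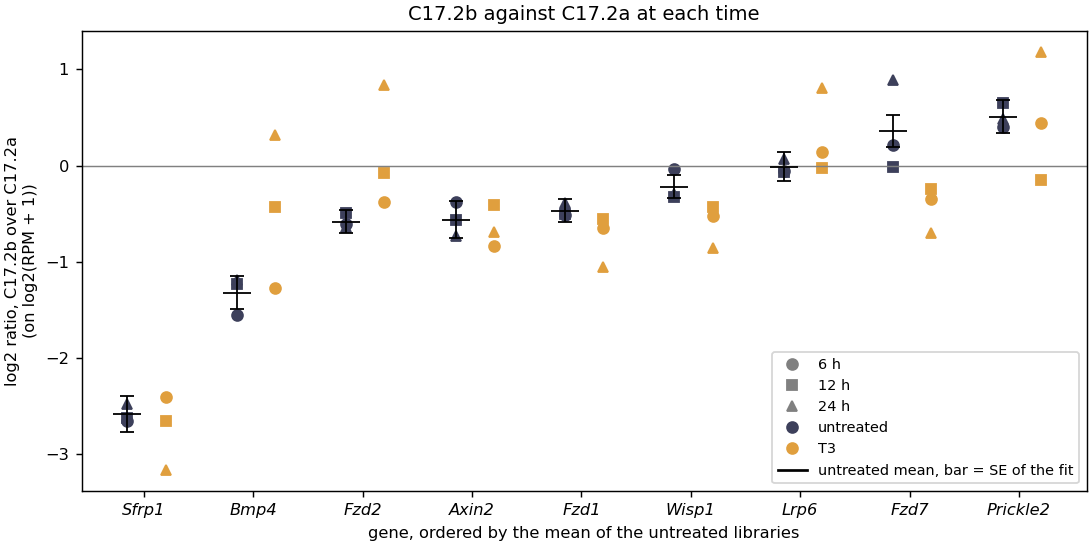
Log2 ratio of C17.2b over C17.2a, on log2(RPM + 1), for each gene at 6 h (circles), 12 h (squares) and 24 h (triangles), in dark blue without T3 and in orange with T3. Black bars are the mean of the untreated times with the SE of the fit. Sfrp1 lies below -2 in all 6 comparisons, and Bmp4 lies below 0 in all but the T3 libraries of 24 h.

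Time without serum was followed in the untreated cells, 24 h against 6 h with the 2 lines as repeats. Axin2, Prickle2, Sfrp1, Fzd2 and Lrp6 were called higher at 24 h, 5 of 9 genes where 43% of all genes tested were, and 0 of 9 lower, where 13.1% were. The median over all genes was itself 0.40, and it became -0.03 with median-ratio scaling, which moved the share of higher among all calls from 76.6% to 47.2%. Axin2 went from 1.86 to 13.3 RPM in C17.2a and from 1.20 to 7.60 RPM in C17.2b, a log2 change of 2.14 (SE 0.24, adjusted p = 8.91e-05 in limma). Prickle2 changed by 1.22 (SE 0.21, adjusted p = 0.000965 in limma). Both kept their call with scaling, at 1.75 (SE 0.22) and 0.78 (SE 0.19). Fzd2 at 0.63 (SE 0.15), Sfrp1 at 0.70 (SE 0.23) and Lrp6 at 0.55 (SE 0.19) lost it, with values of 0.15, 0.40 and 0.09 under scaling. With scaling, Fzd1 (-0.62), Fzd7 (-0.83), Wisp1 (-0.81) and Bmp4 (-0.90) passed as lower instead. In that fit 2 of the 9 were called higher and 4 lower, while 23.8% of all genes were higher and 26.6% lower.

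The lists of the Wnt and BMP pathways hold 126 symbols besides the 9 genes, of which 90 were in the table. With T3, 70 were tested, 3 rose, 2 fell and 65 did not pass, with a median log2 fold change of -0.04. Over all genes tested, 4.09% rose and 2.35% fell, so these counts were near the background. Celsr2, a cadherin of the planar polarity branch, rose by 1.37 (SE 0.21, adjusted p = 0.00602 in limma) while Prickle2 of the same branch fell. It went from 0.09 to 1.33 RPM in untreated libraries to 1.70 to 5.89 RPM with T3. Only 1 untreated library, that of C17.2a at 24 h, reached 1 RPM, so Celsr2 passed the filter through its T3 libraries. Fosl1, a subunit of the AP-1 factor, rose by 0.83 (SE 0.20, adjusted p = 0.0402 in limma), and the ligand Wnt5a by 0.56 (SE 0.14, adjusted p = 0.0484 in limma). Ccnd1, which codes for cyclin D1, fell by 1.39 on the log2 scale (SE 0.14, adjusted p = 0.000624 in limma), from 186.52 to 299.09 RPM without T3 to 67.84 to 108.83 RPM with it. Bambi, a decoy receptor of BMP and related signals, fell by 0.86 on the log2 scale (SE 0.15, adjusted p = 0.00912 in limma). Ccnd1 kept its call under 13 alternatives and Celsr2 under the 12 that tested it, while Bambi lost it without a time block (adjusted p = 0.437 in limma). Fosl1 and Wnt5a were called under 6 and 5 of 13 alternatives, and both lost the call without the 6 h or the 12 h pair of either line, Wnt5a also without the C17.2b 24 h pair. None of the tested frizzled receptors but Fzd7 passed, and none of the co-receptors, secreted antagonists, dishevelled partners, destruction complex or nuclear partners of beta-catenin did. Without the C17.2a 24 h pair, 11 of 68 were called higher and 7 lower, where 9.14% of all genes were higher and 5.81% lower. In that fit the co-receptor gene Lrp5 (0.57, SE 0.15) and Ctnnb1, which codes for beta-catenin (0.88, SE 0.24), were called higher. So were the beta-catenin partners Bcl9l (0.63, SE 0.11) and Tle3 (0.41, SE 0.09), and Dvl1 (0.32, SE 0.09). Znrf3 (0.42, SE 0.12), Smad7 (0.55, SE 0.16) and Msx2 (0.40, SE 0.09) were called higher too. Called lower were Nkd2 (-0.40, SE 0.07) and Fst (-0.64, SE 0.13). The listed target genes Myc (-0.58, SE 0.17), Cd44 (-0.51, SE 0.11) and Cyr61 (-0.55, SE 0.14) were also called lower. The values of the 5 genes called over all pairs were 1.55 (SE 0.17) for Celsr2, 0.66 (SE 0.15) for Fosl1, 0.61 (SE 0.13) for Wnt5a, -1.39 (SE 0.13) for Ccnd1 and -0.96 (SE 0.13) for Bambi.

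Between the untreated lines, 67 of the other pathway genes were tested, and 9 were lower and 2 higher in C17.2b, with a median of -0.13. Over all 10192 genes tested, 5.92% were lower and 2.93% higher. The lists too were chosen with earlier results of these data known, so the counts cannot show an excess. Wisp2, a CCN-family relative of Wisp1, was lower by a log2 value of -3.32 (SE 0.20, adjusted p = 3.62e-05 in limma), with 19.28 to 48.18 RPM in untreated C17.2a and 1.57 to 3.26 RPM in untreated C17.2b. Cyr61, another CCN gene, was lower by -1.15 (SE 0.12, adjusted p = 0.000501 in limma). The secreted BMP antagonists Chrd, Nog and Fst were lower along with Bmp4, at -1.50 (SE 0.23), -1.12 (SE 0.20) and -0.93 (SE 0.21), with adjusted p of 0.00333, 0.00785 and 0.0216 in limma. Untreated Chrd was at 1.69 to 10.41 RPM in C17.2a and at 0.05 to 1.90 RPM in C17.2b. Untreated Nog was at 1.15 to 6.33 RPM in C17.2a and at 0.09 to 2.58 RPM in C17.2b. In C17.2b only the 24 h library reached 1 RPM for either gene, so both passed the filter through C17.2a. Rspo3, which strengthens Wnt signals at the receptor, was at -1.05 (SE 0.21, adjusted p = 0.0143 in limma) and Wls, which carries Wnt proteins to the cell surface, at -0.68 (SE 0.12, adjusted p = 0.00702 in limma). Kremen1, a co-receptor for Dkk antagonists, was at -0.53 (SE 0.14, adjusted p = 0.0455 in limma). Of the dishevelled-binding proteins, Nkd1 was lower at -1.29 (SE 0.23, adjusted p = 0.00822 in limma), and Nkd2 and Dact1 were higher at 0.67 (SE 0.13) and 0.92 (SE 0.21), and limma gave adjusted p of 0.0101 and 0.023. The calls of Wisp2, Cyr61, Nkd1 and Wls held under all 10 alternatives. Those of Chrd and Dact1 held under the 8 and 6 that tested them. Untreated Dact1 was at 0.27 to 0.71 RPM in C17.2a and at 1.76 to 2.04 RPM in C17.2b. It passed the filter only through C17.2b, and no fit that left out a time tested it. Without the 6 h libraries those of Nkd2, Nog, Rspo3, Fst and Kremen1 were lost, with adjusted p from 0.0525 for Nkd2 to 0.26 for Kremen1 in limma, and Fst (0.1) and Kremen1 (0.154) lost theirs without the 12 h libraries too.

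**Figure D4:**
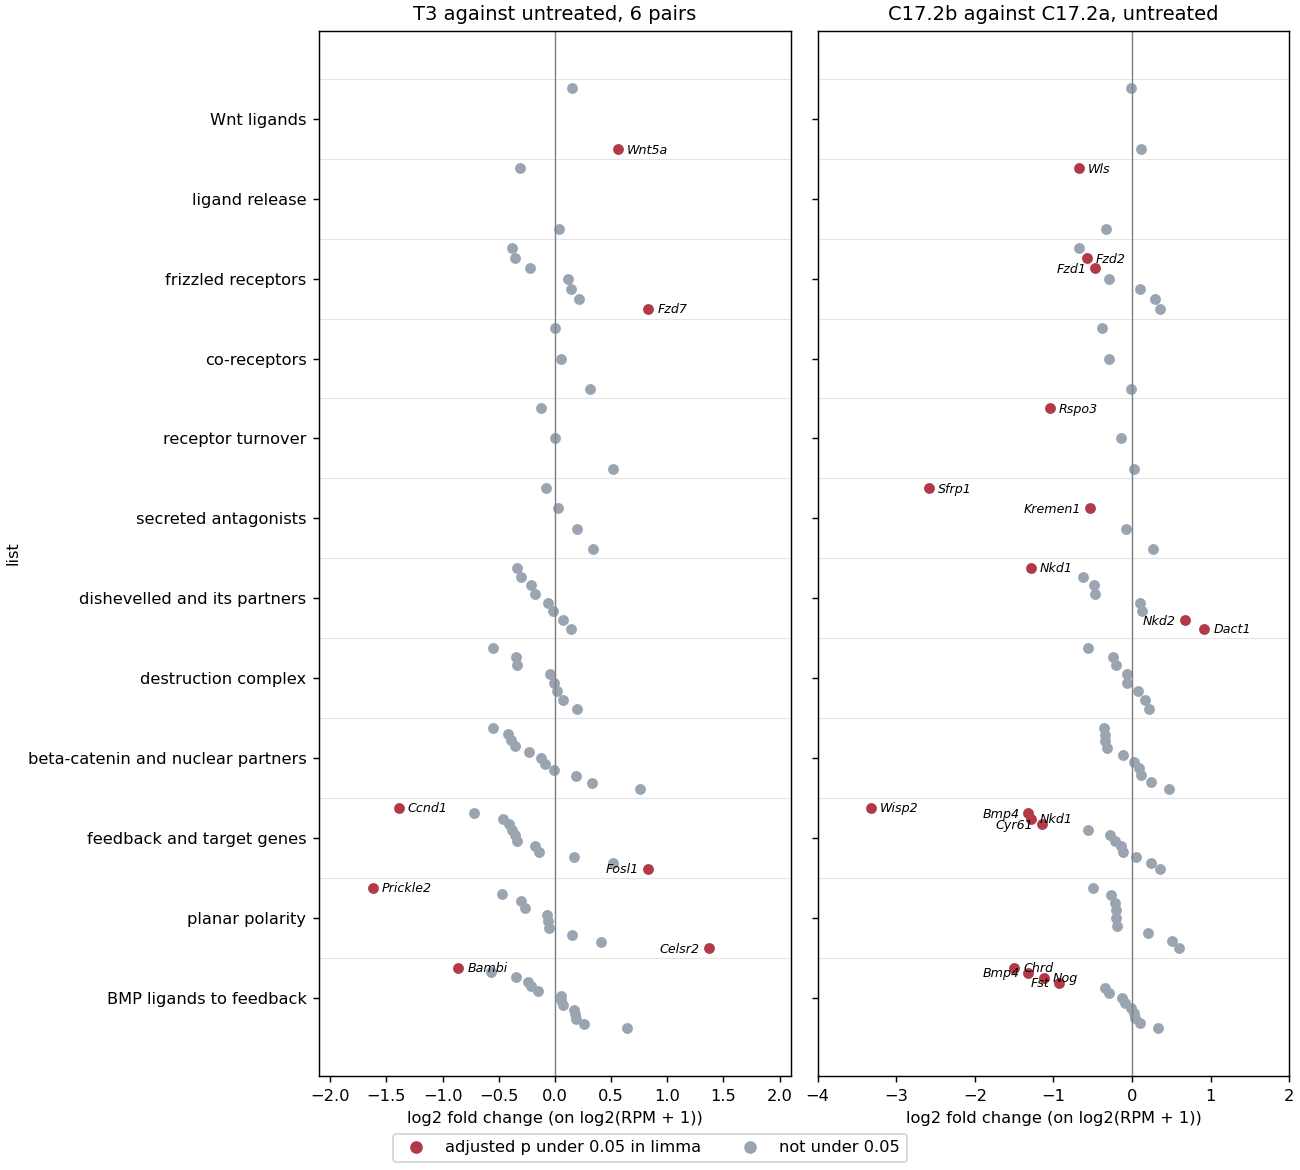
Log2 fold change, on log2(RPM + 1), of every tested gene of the 12 pathway lists (one row of points per list, sorted within it), for T3 over the 6 pairs (left) and for untreated C17.2b against C17.2a (right). Red points passed an adjusted p of 0.05 in limma and are named, and grey points did not. A gene can stand in more than 1 list. Few genes passed with T3, Prickle2 and Ccnd1 at the low end and Celsr2 at the high end, and on the right most named genes lie below 0.

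The genes whose profile over the 12 libraries was most like that of each of the 9 were ranked by Pearson's r of log2(RPM + 1), among tested genes with a mean of at least 5 RPM. These are descriptions over libraries that share lines, times and treatments. Prickle2 ran with Kcnmb4 (r = 0.93), Ncald (0.93) and Flot1 (0.92), and Fzd7 with Gpd2 (0.94), Igsf5 (0.93) and P4ha2 (0.93). Axin2 ran with Sf3b5 (0.98), Taf10 (0.97) and Lgals1 (0.96). Sfrp1 ran with Il18, Bdh2 and Loxl4 (0.97 each) and Bmp4 with Nck1 (0.96), Tbx18 (0.90) and Arhgap29 (0.89). Lrp6 ran with Spats2 (0.97), Sh3bp2 (0.95) and Nfat5 (0.93), Fzd1 with Slc25a45 (0.91), Plscr4 (0.90) and Stard3nl (0.89), and Wisp1 with Sgk1 (0.94), Emb (0.92) and Cdr2 (0.92). Fzd2 ran with Ehd2 (0.94), Ecm1 (0.94) and Tmem219 (0.93), and over the 10 libraries without the C17.2a 24 h pair r was 0.81 to 0.89 and these held places 76, 257 and 233. Others lost their places as well, with Nfat5 at 62 and Sh3bp2 at 42 for Lrp6, Arhgap29 at 46 for Bmp4 and Emb at 27 for Wisp1, while Spats2 for Lrp6 and Sf3b5 for Axin2 held the first place. None of the 9 was among another's 3 most alike genes. Between members, Fzd7 and Prickle2 had the most negative r over the 12 libraries, at -0.79. Without that pair it was -0.74, and Fzd1 and Lrp6 then had the most negative r, at -0.80 (-0.75 over 12 libraries).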

How the data were processed

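Per the labels' protocols, polyA RNA was reverse-transcribed, and the series title names digital gene expression libraries, in which a tag stands for a transcript. The submitters' processing notes name build mm9. The aligner and the way tags were assigned to genes are not given in the sources used here. RPM values of 12 libraries, 1 column each, were deposited by the authors in 1 table, and the unit was read from the column sums. N/A was read as 0, and no N/A fell on the 9 genes. Between 90.7% and 93.9% of a library's low values were whole multiples of a step (tolerance 0.0055 RPM), from which the implied depth was taken. On that basis 3 tags equal 0.157 to 0.42 RPM, counting error only.

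Tests used limma 3.58.1 in R 4.3.3 (lmFit and eBayes with a trend) on log2(RPM + 1), for genes that reached 1 RPM in 3 or more of the libraries fitted, with Benjamini-Hochberg adjustment over all genes tested and a threshold of 0.05. All 9 genes passed this filter in the main fits. The plan named a count-based test for counts and limma for normalized values, and the table holds the latter. With 1 library per group, the 6 pairs of a line and time served as repeats and as blocks in the T3 tests. Time was the block for the untreated lines, and line for the untreated times. The labels do not say which libraries are separate cultures, so p-values measure the spread between pairs, which holds real differences between times and lines. Scripts were tested on simulated data. Alternatives were other pseudocounts (0.5 and 5), filters (none, or 5 RPM), median-ratio scaling, no time block, array weights, all 12 libraries for untreated comparisons, and leaving out pairs or times.

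The 9 genes and the pathway lists were chosen with earlier results of these data known. Beyond the 9 genes, those named were up to 4 members per list with the smallest p among those called with T3 or between untreated lines, the 3 most alike genes of each, and Hr and Klf9. Gsk3b, the pathway genes called only without the C17.2a 24 h pair, and the marker genes given with values were named after their values were seen.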

Additional observations from a re-analysis of the deposited data

Results flagged for a closer look

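Nkd1, which binds dishevelled and restrains Wnt signals as a feedback gene, was lower with T3 in all 3 pairs of C17.2a and higher in all 3 pairs of C17.2b. In C17.2a it went from 5.18, 5.95 and 22.66 RPM without T3 at 6, 12 and 24 h to 3.58, 5.73 and 7.28 RPM with it. In C17.2b it went from 2.04, 2.69 and 5.15 RPM to 2.87, 2.92 and 7.43 RPM. The difference of the responses, C17.2b minus C17.2a, was 0.96 on the log2 scale (SE 0.39). It did not pass the test (unadjusted p = 0.0402, adjusted p = 0.722 in limma). For Nkd1 the gap was widest in the C17.2a 24 h pair, and in the 12 h pairs the log2 ratios were -0.05 and 0.09. A difference between the lines with an unadjusted p under 0.05 was not particular to Nkd1. The median difference over all genes tested was 0.12. Wisp2 (1.47, SE 0.40), Chrd (0.91, SE 0.29) and Fosl1 (-0.88, SE 0.28) had smaller unadjusted p and did not pass either. None of these had the signs of Nkd1 in every pair. Fosl1 was higher with T3 in both lines. In C17.2b, Wisp2 was lower with T3 at 24 h and Chrd was level at 12 h. How many of all genes had opposite signs in the lines was not counted.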

How the results depend on the processing

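Of 735 values of the 9 genes under alternative settings, 644 kept their direction and their side of the threshold, 39 lost and 22 gained a call, and 30 changed sign, of which 0 had passed before or after. Of the 9 genes, the number called for the shared T3 response was 1 with no filter, 1 with median-ratio scaling and 4 with array weights, against 2, and 1 to 4 when a pair was left out. In C17.2a it was 0 with pseudocount 5, 0 with no filter, 1 with scaling and 0 without a time block, against 2, and 0 to 2 when a pair was left out. In C17.2b it was 0 without a time block and 5 with array weights, against 1, and 0 to 5 when a pair was left out. For 24 h minus 6 h of the T3 response it was 0 to 5 when a pair was left out, against 0. Between untreated lines it was 2 to 3 when a time was left out, against 4. Without the 24 h libraries Sfrp1 failed the filter and was not tested, which is no lost call. It was then at 6.57 and 8.44 RPM in C17.2a and at 0.21 and 0.54 RPM in C17.2b. For untreated 24 h minus 6 h it was 3 with the filter at 5 RPM and 3 with all 12 libraries, against 5. The 5 RPM filter left Axin2 untested there, since only its 24 h libraries (13.27 and 7.60 RPM) reached it.

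Over all genes, calls for the shared T3 response numbered 240 without a time block and 1706 with array weights, against 682, and 319 to 1554 when a pair was left out. The C17.2a counts were 28, 954 and 32 to 462, against 145, and the C17.2b counts 86, 1503 and 39 to 1178, against 329. The difference between lines had 3 calls with array weights and 0 to 2 when a pair was left out. The difference between 24 h and 6 h had 1 without a time block, 76 without the C17.2a 24 h pair and 3342 without the C17.2b 24 h pair, a range of 0 to 3342 over the pairs. Untreated lines had 404 to 1047 calls when a time was left out, against 902. These counts are for other numbers of libraries, and the cause of each shift was not tested.

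The sign changed with array weights for the shared T3 value of Sfrp1 (-0.08), in C17.2a for Sfrp1 (-0.10), Axin2 (0.08) and Wisp1 (-0.15), in C17.2b for Fzd2 (0.02), and for the line difference of Sfrp1 (0.02). Other settings turned the line difference of Axin2 (0.00 with pseudocount 5) and of Prickle2 (0.04 with pseudocount 0.5), and between untreated lines Fzd7 (-0.03 with all 12 libraries) and Lrp6 (0.06 with median-ratio scaling, 0.15 with all 12 libraries). When pairs or times were left out, values with a changed sign ranged as follows. Shared T3 values ran from -0.08 to 0.08 for Sfrp1 and from 0.00 to 0.40 for Bmp4. In C17.2a they ran from -0.04 to 0.44 for Lrp6, -0.14 to 0.24 for Sfrp1, -0.15 to 0.18 for Wisp1 and -0.52 to 0.10 for Bmp4. In C17.2b they ran from -0.06 to 0.05 for Fzd2 and -0.13 to 0.02 for Sfrp1. Line differences ran from -0.29 to 0.09 for Sfrp1, -0.34 to 0.20 for Axin2 and -0.42 to 0.36 for Prickle2. Differences of 24 h and 6 h ran from -0.19 to 0.47 for Fzd1, -0.22 to 1.36 for Fzd7, -0.08 to 0.60 for Sfrp1 and -1.07 to 0.44 for Bmp4. Untreated lines ran from -0.06 to 0.01 for Lrp6. The cause was not tested for any of these.

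The untreated times could not be refitted without one line, since no residual degrees of freedom are left. No paired analysis was possible because no replicate number is given, other than the pairs of a line and time that every T3 fit already uses. Depth limits the precision of Sfrp1 in C17.2b (3 to 8 implied tags per library), of Axin2 at 6 and 12 h (9 to 32) and of Prickle2 with T3 (10 to 35).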
